A study of Mus musculus with 18 samples.

Results

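The comparison of thalidomide with control at 48 h set 3 arrays of exposed embryoid bodies against 3 control arrays, 6 of the 18 arrays of the series, chosen by the treatment and time in their labels. Embryoid bodies are floating aggregates in which embryonic stem cells leave pluripotency and begin to form germ layer derivatives. Total RNA of C57BL/6 mouse embryonic stem cells that were differentiating in this way was hybridised, 1 sample to an array, and the 18 arrays form 6 groups of 3 (control and thalidomide at 24, 48 and 72 h). The exposed group of 48 h received 0.25 mM thalidomide from day 3 of the embryoid body stage. Its control is, by the treatment protocol, a culture with 0.25% DMSO, the vehicle; the series description calls controls unexposed, and in their source names the hours run from the formation of the bodies. Strain, stem cell origin and array type were shared by both groups. The labels call the 3 arrays of a group biological replicates and do not say whether they came from separate cultures, so p-values measure the spread between these arrays, which may be technical. The titles of the 3 controls of 48 h carry a re-analysis tag, which the 3 exposed arrays of 48 h lack, so tag and treatment cannot be told apart at this time. At 24 h all 6 arrays carry the tag, and the 24 h value of a gene is therefore given beside many of its 48 h values.

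Thalidomide is a human teratogen that binds cereblon, the substrate receptor of a CUL4-DDB1 ubiquitin ligase, and redirects the ligase to new protein substrates such as IKZF and SALL4 proteins. Rodent cereblon differs from the human protein at a residue that matters for the recruitment of several of these substrates. The genes given to mark this comparison were Sdhc, a membrane anchor of succinate dehydrogenase (respiratory complex II), Cxcr4, a chemokine receptor displayed by definitive endoderm, Cdkn1a, the p21 inhibitor of cyclin-dependent kinases, and Dexi, a gene named for its response to dexamethasone. In a bulk array, fewer cells of a type and less RNA per cell cannot be told apart.

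Promoters of 3 genes on which the results turn are shown first, each from 250 bases before to 50 bases after the annotated start in RefSeq (GRCm38.p6), 5′ to 3′ on the gene's strand. The capitals mark, in H2bc12 (chr13:22035571-22035870, plus strand), the octamer ATTTGCAT typical of H2B histone promoters; in Mrps21 (chr3:95871465-95871764, minus strand), the ETS-type sequence CCGGAAG read on the opposite strand; and in Dexi (chr16:10543005-10543304, minus strand), the CCAAT box.
H2bc12: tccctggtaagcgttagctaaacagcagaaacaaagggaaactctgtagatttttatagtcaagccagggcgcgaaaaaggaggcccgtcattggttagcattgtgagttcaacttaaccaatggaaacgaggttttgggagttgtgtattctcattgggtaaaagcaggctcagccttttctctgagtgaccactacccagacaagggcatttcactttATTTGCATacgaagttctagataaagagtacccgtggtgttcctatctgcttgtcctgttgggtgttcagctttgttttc
Mrps21: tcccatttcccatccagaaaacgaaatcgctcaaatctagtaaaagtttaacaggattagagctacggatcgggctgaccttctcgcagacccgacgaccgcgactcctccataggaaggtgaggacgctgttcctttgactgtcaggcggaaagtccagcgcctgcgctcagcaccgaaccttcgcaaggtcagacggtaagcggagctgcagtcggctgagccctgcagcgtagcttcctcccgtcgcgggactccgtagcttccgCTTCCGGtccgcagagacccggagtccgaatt
Dexi: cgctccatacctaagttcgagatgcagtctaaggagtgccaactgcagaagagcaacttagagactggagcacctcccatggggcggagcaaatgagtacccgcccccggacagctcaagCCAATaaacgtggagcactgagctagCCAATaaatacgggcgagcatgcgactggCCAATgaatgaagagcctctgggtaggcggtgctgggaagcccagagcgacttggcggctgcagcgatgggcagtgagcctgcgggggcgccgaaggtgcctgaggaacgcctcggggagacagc
The octamer began 30 bases before the start of H2bc12, and the 3 CCAAT boxes of Dexi began 130, 104 and 75 bases before its start. The ETS-type match of Mrps21 lay just downstream of the start. On both strands, ATTTGCAT was in 1.74% of the 32851 promoter windows of the table, CCGGAAG in 8.86% and CCAAT in 37.4%. These are matches of letters and say nothing about what binds there.

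Sdhc fell more than any other gene at 48 h. Its log2 signal was 8.69, 8.71 and 8.78 on the control arrays and 7.49, 7.34 and 7.27 on the exposed arrays, so the groups lay more than 1 log2 unit apart and did not overlap. The change was −1.36 ± 0.08 (log2 change, exposed minus control, ± SE of limma's fit over all arrays; 2.57-fold lower, adjusted p = 2.88e-07). At 24 h it was −1.27, and at 72 h −0.10 (adjusted p = 0.803).

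The other subunits of succinate dehydrogenase did not follow Sdhc past the threshold. Sdha, the flavoprotein subunit, was at 9.86, 9.87 and 9.84 in controls and 10.08, 10.11 and 10.01 after exposure, a change of 0.21 ± 0.06 (adjusted p = 0.0513); after loess normalization it passed (0.24, adjusted p = 0.0239). Sdhb, the iron-sulfur subunit, changed by −0.06 ± 0.06 (adjusted p = 0.614), and Sdhd, the partner anchor of Sdhc, by −0.13 ± 0.06 (adjusted p = 0.217). Sdhaf1, an assembly factor of the complex, fell by 0.45 ± 0.09 (adjusted p = 0.00749), with a dimmer second probe set at 0.04; the call was lost when the probe sets were averaged. Over complex II and its assembly factors, 2 of 8 measured genes fell and 0 rose, against 4.23% of all 22180 genes lower and 1.85% higher. Of the 8, 5 were among the 5545 genes with the highest mean signal, of which 9.41% were called lower. At 24 h 4 of the 8 were lower (5.43% of all genes were) and 0 higher, with a median of −0.26.

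Dexi had a log2 signal of 7.73, 7.61 and 7.68 on the control arrays and of 8.69, 8.42 and 8.46 on the exposed arrays. All exposed arrays were higher than all controls, and the rise was 0.85 ± 0.09 (1.80-fold, adjusted p = 0.000151). The rise was 1.01 at 24 h, and the value was 0.00 at 72 h (adjusted p = 0.997). Zcchc17, which encodes a zinc-knuckle protein linked to RNA processing, was 7.56 on each of the 3 control arrays and 8.26, 8.11 and 8.15 after exposure, a rise of 0.61 ± 0.07 (adjusted p = 0.000357) with 0.56 at 24 h.

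Cdkn1a was at 9.55, 9.56 and 9.69 in controls and 8.99, 9.22 and 9.07 after exposure, with no overlap. It fell by 0.51 ± 0.10 (1.42-fold, adjusted p = 0.00689), against −0.34 at 24 h (adjusted p = 0.0408). Cxcr4 was at 8.83, 8.96 and 8.94 in controls and 8.51, 8.45 and 8.51 after exposure, also with no overlap. It fell by 0.42 ± 0.07 (1.34-fold, adjusted p = 0.00451), against −0.24 at 24 h (adjusted p = 0.0597). Both kept their call when any 1 of the 6 arrays of 48 h was left out, with adjusted p-values of at most 0.0372 for Cdkn1a and 0.0251 for Cxcr4. In a fit of the 48 h arrays alone they stood at 0.0503 and 0.0504.

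**Figure D1:**
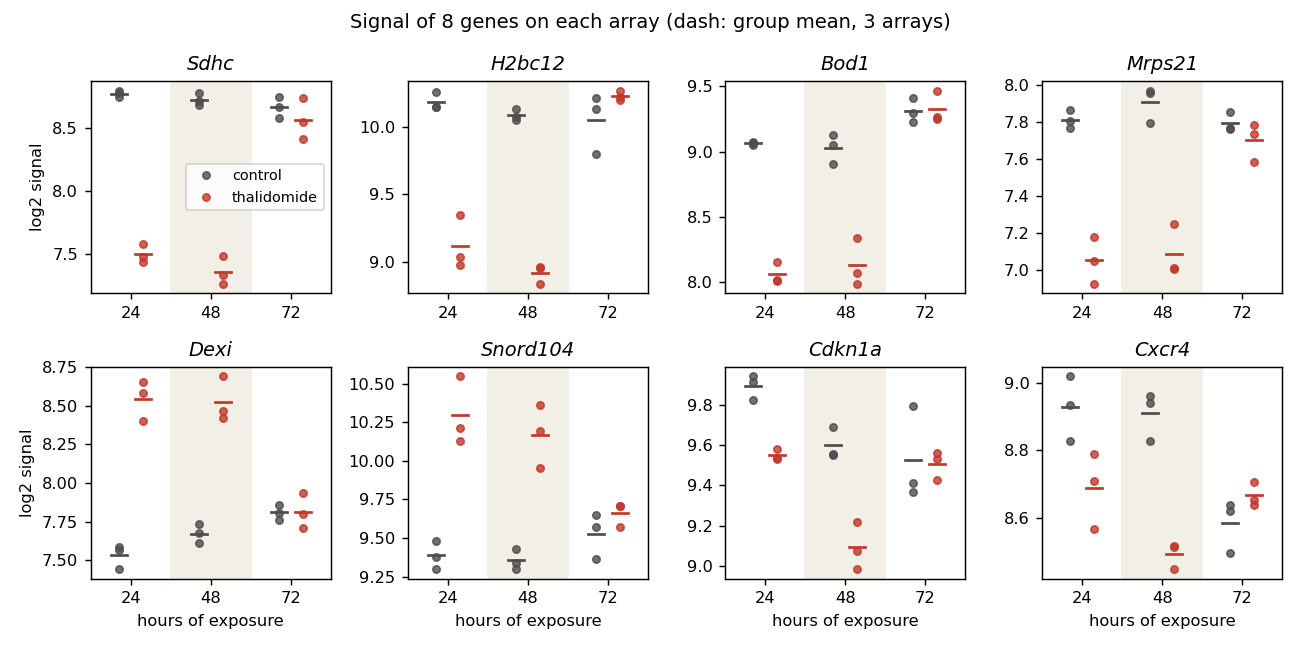
Log2 signal (vertical axis) of 8 genes on each array, by hours of exposure (horizontal axis), for control (grey) and thalidomide (red); points are arrays and dashes are group means. At 48 h (shaded) the exposed arrays of Sdhc lie between 7.27 and 7.49, below all controls, and those of Dexi lie between 8.42 and 8.69, above all controls.

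In all, 1349 of 22180 genes (6.08%) passed an adjusted p of 0.05 at 48 h, of which 410 were higher (1.85%) and 939 lower (4.23%) after exposure. Exposed and control arrays did not overlap in 6477 of the 22180 genes, most of which were not called. Changes were small: 123 of the called genes differed by at least 1.5-fold. The share of falls among the calls was 69.6%, and 59.4% after loess normalization (415 higher and 606 lower). Falls were concentrated among bright genes. Of 4 groups of 5545 genes by mean signal, the brightest had 9.41% called lower and 1.71% higher, whereas the 2 dimmest had 0.397% and 0.884% called lower and 1.53% and 2.81% higher. The median change was 0.06 and 0.08 in the 2 dimmest groups and −0.05 and −0.06 in the 2 brightest, and after loess it lay between −0.01 and 0.01 in all 4, so the loess value is given below beside the median of a list.

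The count of calls depended on single arrays. Leaving out control array 1, 2 or 3 left 598, 708 or 612 calls, leaving out thalidomide array 2 or 3 left 494 or 584, and leaving out thalidomide array 1 left 1280. A fit of the 6 arrays of 48 h alone, without the spread of the other groups, called 163 genes (37 higher, 126 lower). Of 86 called genes considered by name, 40 kept their call without any 1 array and 24 kept it with the 48 h arrays alone. None of the 86 changed sign, but most of the 13 alternatives could not have shown it. Exposed and control arrays overlapped in none of the 86, so leaving out 1 array could not reverse a change. The 48 h arrays alone give the same change as the main fit. Gene counts of lists below are read against the 4.23% lower and 1.85% higher over all genes at 48 h, and those of 24 h against 5.43% lower and 1.42% higher.

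**Figure D2:**
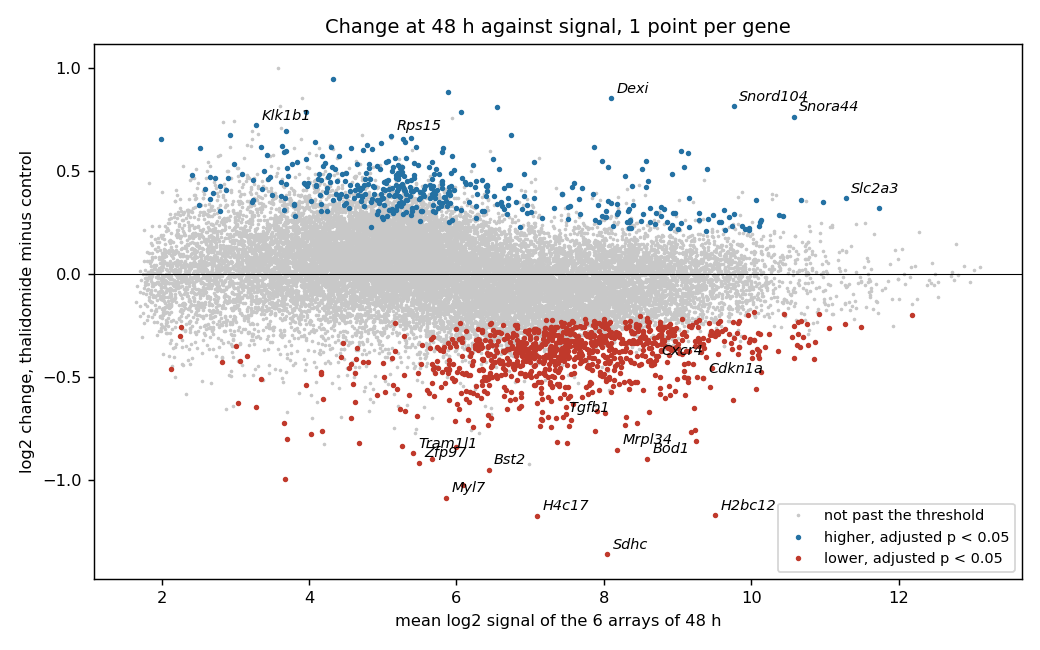
Log2 change at 48 h, thalidomide minus control (vertical axis), against the mean log2 signal of the 6 arrays of 48 h (horizontal axis), 1 point per gene; red genes were lower and blue genes higher at an adjusted p under 0.05. Sdhc has the lowest change (−1.36), and the 939 red points lie mostly among bright genes.

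After Sdhc, the largest falls among genes whose 3 exposed arrays all lay below the 3 controls were in 2 histone genes. H2bc12, an H2B gene, was at 10.08, 10.06 and 10.14 in controls and 8.96, 8.84 and 8.96 after exposure. No exposed array came within 1 log2 unit of a control, and the fall was 1.17 ± 0.10 (2.25-fold, adjusted p = 3.97e-05) with −1.07 at 24 h and 0.18 at 72 h. H4c17, an H4 gene, was at 7.72, 7.62 and 7.70 in controls and 6.90, 6.74 and 5.88 after exposure, and thalidomide array 3 was far below the other exposed arrays. It fell by 1.17 ± 0.21 (adjusted p = 0.0055) and by 0.86 to 1.37 when 1 array was left out, with −0.65 at 24 h (adjusted p = 0.0822).

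Replication histones as a list did not all move with those genes. Of 25 measured, 2 fell and 1 rose, H2ac1, at a low signal near 5 (0.50 ± 0.10, adjusted p = 0.0113), while 22 of 25 lay below 0 with a median of −0.26, against 0.01 over all genes and −0.28 after loess. At 24 h the median was −0.13 with 4 falls, and at 72 h it was 0.13. Histone genes are near-identical in sequence, so single members can share probes and are uncertain. Among H2B genes, H2bc9 was at −0.70 ± 0.22 (adjusted p = 0.0662), H2bc3 at −0.35 ± 0.12 (0.0832) and H2bc14 at −0.32 ± 0.11 (0.0921). H2bc18 was at −0.13 ± 0.08 (0.363), H2bc22 at −0.13 ± 0.13 (0.598) and H2bc1, a very dim gene, at 0.01 ± 0.18 (0.984). The octamer was in at least 1 window of 5 of 7 matched H2B genes: H2bc12, H2bc3, H2bc14, H2bc18 and H2bc1. It was in no window of H2bc9 or H2bc22. A relation between the octamer and the change was not tested.

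Other large falls were Bst2 (tetherin, which holds budding virus at the membrane), Zfp97, Bod1 (a regulator of chromosome biorientation in mitosis), Tram1l1, Mrpl34, Nanp (a phosphatase of sialic acid synthesis), Adam4 and Mrps21. Bod1 was at 8.91, 9.05 and 9.13 in controls and 8.34, 8.07 and 7.99 after exposure. It fell by 0.90 ± 0.09 (adjusted p = 0.000151) and stood at −1.01 at 24 h; a second, dimmer probe set changed by −0.20. Nanp fell by 0.84 ± 0.15 (adjusted p = 0.00466) and its second probe set changed by −0.53. Tram1l1, a dim gene, was at 5.96, 5.73 and 5.83 in controls and 5.11, 4.66 and 5.14 after exposure, a fall of 0.87 ± 0.13 (adjusted p = 0.00218) that was −0.04 at 24 h. Zfp97 fell by 0.92 ± 0.15 (adjusted p = 0.00351) and belongs to a zinc finger family of near-identical copies. Adam4 (−0.82 ± 0.22, adjusted p = 0.0374) lost its call without any single one of the 6 arrays, with adjusted p-values of 0.0507 to 0.148.

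Over all genes the highest change was 1.00, in a gene that did not pass the test. Among called genes with no overlap between the groups, and with predicted loci, olfactory and vomeronasal receptor genes and small RNAs left out, the 12 largest rises ran from 0.61 to 0.85, and most were in dim genes. After Dexi they comprised Klk1b1, Syne1, Rps15, Pramel33, Mcpt8, H2-Bl, Ccno, Defb15, Zcchc17, Bnipl and Cypt4. Of these, Mcpt8, a mast cell protease gene, was at 3.69, 3.85 and 3.76 in controls and 4.32, 4.39 and 4.50 after exposure (0.64 ± 0.10, adjusted p = 0.00258) and stood at 0.07 at 24 h. Syne1, which encodes a nuclear envelope spectrin-repeat protein, rose by 0.67 ± 0.16 on its brightest probe set (adjusted p = 0.0193), while the mean change over its 59 probe sets was 0.01. Klk1b1, Pramel33 and H2-Bl belong to families of close copies and are uncertain. Pramel33 and H2-Bl were not called without any single one of the 6 arrays (adjusted p of 0.0507 to 0.155 and of 0.0516 to 0.107), and Klk1b1 was not called without control array 1, 2 or 3 or thalidomide array 1 or 3 (adjusted p up to 0.103). Calls were also lost by Ccno without control array 1 or 2 or thalidomide array 2 (adjusted p up to 0.102), by Defb15 without control array 1 or 3 or thalidomide array 2 or 3 (up to 0.0661), and by Syne1 without control array 1 or thalidomide array 1 (up to 0.0808). In these dim genes no detection value set the signal against background.

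Genes of the mitochondrion fell in several groups. The mitochondrial ribosome, which translates the respiratory chain's own mitochondrial messages, had 12 of 71 measured genes lower (16.9%, against 4.23% of all genes) and 0 higher, with a median of −0.15 (−0.08 after loess, with 7 lower). Of the 71, 48 were among the brightest 5545 genes, of which 9.41% were called lower. The arrays of 48 h alone gave 4 calls, and leaving out 1 array left 8 to 11. At 24 h 23 members were lower (5.43% of all genes were), with a median of −0.19, and at 72 h the median was 0.01.
Mrps21 of the small subunit was at 7.97, 7.80 and 7.96 in controls and 7.01, 7.25 and 7.00 after exposure, a fall of 0.82 ± 0.09 (adjusted p = 0.000151) with −0.76 at 24 h. Mrpl34 of the large subunit was at 8.61, 8.53 and 8.69 in controls and 7.65, 7.93 and 7.69 after exposure, a fall of 0.85 ± 0.11 (adjusted p = 0.000893). The groups of both genes were separate by more than 0.5 log2 units. Mrpl10 fell by 0.54 ± 0.07 (adjusted p = 0.000951; its dimmer second probe set changed by −0.06) and Mrpl32 by 0.66 ± 0.12 (adjusted p = 0.00494). Mrps15, Mrps33, Mrps35, Mrpl11, Mrpl16, Mrpl19, Mrpl21 and Mrpl52 were the other members that fell, by 0.26 to 0.53.

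Respiratory complex I, the NADH dehydrogenase at the entry of the chain, had 9 of 34 genes lower (26.5%) and 1 higher, with a median of −0.20 (−0.14 after loess, with 5 lower), and 23 of the 34 were among the brightest 5545 genes. Leaving out 1 array left 4 to 6 called members, and the 48 h arrays alone 0. Ndufa8 was at 9.09, 9.13 and 9.19 in controls and 8.80, 8.77 and 8.76 after exposure, and fell by 0.36 ± 0.05 (adjusted p = 0.00207). Ndufb9 fell by 0.35 ± 0.06, Ndufa9 by 0.33 ± 0.06 and Ndufa1 by 0.45 ± 0.10 (adjusted p = 0.00555, 0.00406 and 0.0158). Ndufa11 alone rose, by 0.32 ± 0.09 (adjusted p = 0.0465), a call lost without control array 1 or 2 or any 1 exposed array (adjusted p up to 0.187). Ndufa1 was not called without control array 3 or thalidomide array 2 or 3 (adjusted p up to 0.0695). In complexes III to V, which pass electrons to oxygen and make ATP, 5 of 32 genes fell and 0 rose (median −0.13, −0.10 after loess). Leaving out 1 array left 1 to 4 calls, and the 48 h arrays alone 0. Of the 32, 22 were among the brightest 5545 genes. Atp5l, a membrane subunit of ATP synthase, was at 8.76, 8.43 and 8.78 in controls and 8.21, 7.76 and 7.80 after exposure; it fell by 0.73 ± 0.15 (adjusted p = 0.0115) and was not called without thalidomide array 2 or 3 (adjusted p up to 0.0577). Atp5h fell by 0.41 ± 0.06 (adjusted p = 0.00218). Cox7b of cytochrome oxidase fell by 0.46 ± 0.12 (adjusted p = 0.0425) and Uqcrfs1, the Rieske protein of complex III, by 0.31 ± 0.07 (adjusted p = 0.0226). Cox7b lost its call without control array 1, 2 or 3 or thalidomide array 2 or 3 (adjusted p up to 0.14), and Uqcrfs1 without control array 2 or 3 or thalidomide array 1 or 3 (up to 0.0783) and after loess (0.0511). At 24 h 14 genes of complex I and 7 of complexes III to V were lower, and at 72 h both medians were within 0.01 of 0.
Of the 125 mitochondrial genes with a promoter window, 42 (33.6%) held the ETS-type sequence CCGGAAG, as did 8 of the 24 that fell at 48 h (33.3%), against 8.86% of all windows. A gene counted if any of its windows held the sequence, while the 8.86% counts single windows, so these measures are unlike. The members that fell held the sequence at about the share of all mitochondrial members.

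**Figure D3:**
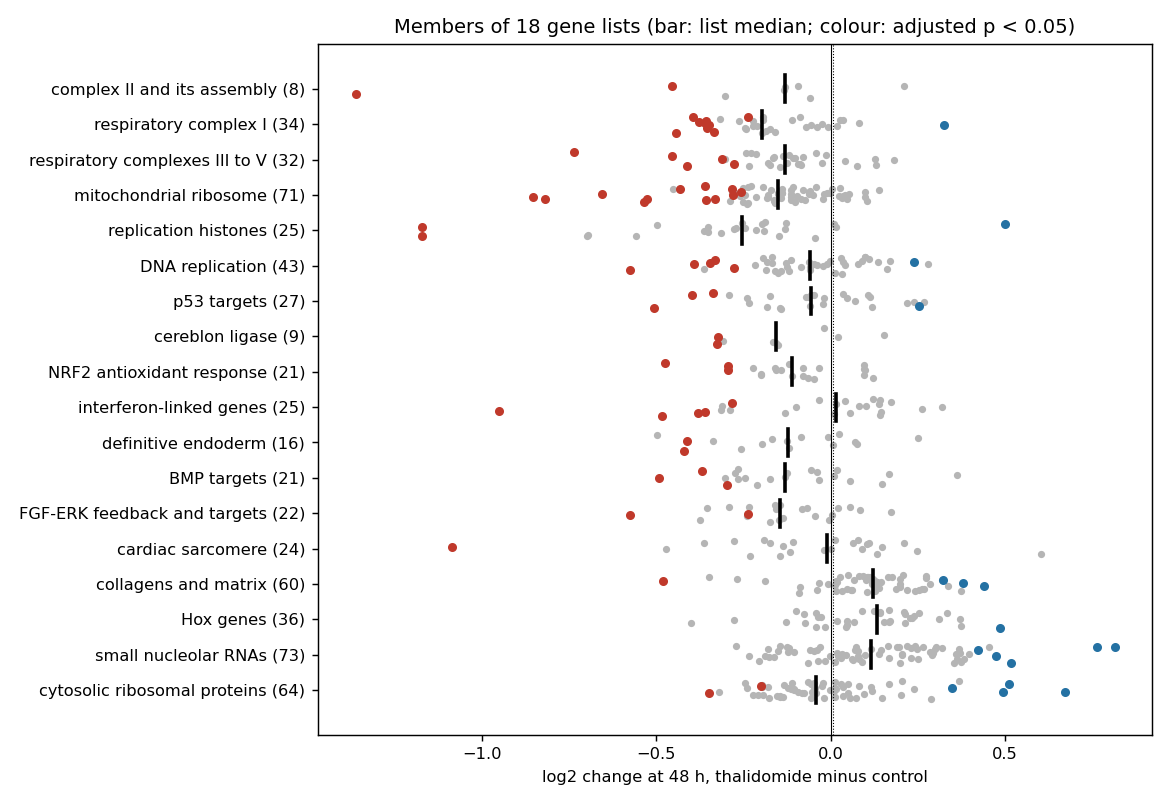
Log2 change at 48 h (horizontal axis, thalidomide minus control) of the members of 18 gene lists, with the number measured in brackets; each point is a gene, red and blue points passed an adjusted p of 0.05, and the bar is the list's median. The bars of complex I (−0.20) and of the mitochondrial ribosome (−0.15) lie below the median of all genes (0.01, dotted line).

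Genes of DNA replication included several members of the GINS complex, which acts with the helicase at replication origins. Gins1 was at 7.47, 7.29 and 7.55 in controls and 6.93, 6.74 and 6.91 after exposure and fell by 0.58 ± 0.10 (adjusted p = 0.0051). Gins4 fell by 0.39 ± 0.07 and Gins2 by 0.33 ± 0.07 (adjusted p = 0.00503 and 0.0118), and exposed and control arrays overlapped in neither gene; Gins2 was not called without control array 1 or thalidomide array 3 (adjusted p up to 0.054). Prim1, the primase subunit, fell by 0.35 ± 0.09 (adjusted p = 0.0283) and Orc1, of the origin recognition complex, by 0.28 ± 0.08 (adjusted p = 0.0489), while Lig1, the replicative ligase, rose by 0.24 ± 0.07 (adjusted p = 0.0445). Orc1 lost its call without any single one of the 6 arrays, Prim1 without all but thalidomide array 1 in turn, and Lig1 without all but control array 1 in turn (adjusted p up to 0.183, 0.0969 and 0.151). Over the list 5 of 43 genes fell and 1 rose, with a median of −0.06 (−0.01 after loess, with 4 falls and 2 rises). Between 2 and 4 were called when 1 array was left out, and 1 with the 48 h arrays alone. Of the 43, 37 were among the brightest 5545 genes. Of 28 genes of mitosis and the kinetochore, Bod1 alone was called.

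Targets of p53 did not rise as a list. Of 27 measured, 3 fell (Cdkn1a, Tnfrsf10b and Perp) and 1 rose (Apaf1, the apoptosome scaffold, 0.25 ± 0.07, adjusted p = 0.0428, lost without any 1 array but control array 1, up to 0.157); the median was −0.06 (0.01 after loess, with 3 falls and 3 rises). Tnfrsf10b, the death receptor for TRAIL, was at 8.64, 8.79 and 8.85 in controls and 8.46, 8.40 and 8.21 after exposure, and fell by 0.40 ± 0.09 (adjusted p = 0.0148). It was at −0.10 at 24 h and 0.38 at 72 h, and was not called without control array 2 or 3 or thalidomide array 3 (adjusted p up to 0.0669). Perp, a desmosomal protein also tied to apoptosis, fell by 0.34 ± 0.09 (adjusted p = 0.0322), a call lost without control array 1, 2 or 3 or thalidomide array 1 or 3 (adjusted p up to 0.129) and after loess (adjusted p = 0.108).

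Of the cereblon ligase and its E2 and regulators, 2 of 9 genes fell and 0 rose, with a median of −0.16 (−0.13 after loess). All 9 were among the brightest 5545 genes, of which 9.41% were called lower, and the 48 h arrays alone gave 0 calls. At 24 h 4 of the 9 were lower (5.43% of all genes were) and 0 higher, with a median of −0.19. Crbn itself was at 8.31, 8.39 and 8.42 in controls and 8.17, 7.93 and 8.10 after exposure, so no exposed array reached a control. Such a gap between the groups, in either direction, was found in 6477 of all 22180 genes. The change in Crbn of −0.31 ± 0.09 missed the threshold (adjusted p = 0.0562). At 24 h Crbn was lower by 0.38 with an adjusted p of 0.0215. Cul4a, the scaffold of the ligase, fell by 0.33 ± 0.07 (adjusted p = 0.0124; not called without control array 3 or thalidomide array 3, adjusted p up to 0.0554). Ube2g1, an E2 enzyme that extends ubiquitin chains on neosubstrates, fell by 0.32 ± 0.08 (adjusted p = 0.0245), a call lost without control array 1, 2 or 3 or thalidomide array 2 or 3 (adjusted p up to 0.101).
Genes of known neosubstrates and of the Sall family showed 1 call of 20, Ikzf5, which fell by 0.29 ± 0.07 (adjusted p = 0.0291) and lost its call without control array 1, 2 or 3 or thalidomide array 2 or 3 (adjusted p up to 0.13). Sall4, whose protein is degraded by the drug in human cells, was at 9.94, 9.98 and 9.96 in controls and 9.86, 9.91 and 9.88 after exposure. The difference of −0.08 ± 0.07 did not pass the test (adjusted p = 0.528), and the arrays measured RNA, not protein. The proteasome had 6 of 47 genes lower and 2 higher (median −0.06, 0.00 after loess), among them Psmb6 (−0.35 ± 0.06, adjusted p = 0.00466) and Psmd10 (−0.46 ± 0.10, adjusted p = 0.012; not called without thalidomide array 2, adjusted p = 0.0622) below 0, and Psmd2 (0.28 ± 0.06, adjusted p = 0.0201) and Psme2 (0.54 ± 0.16, adjusted p = 0.0497) above it. Psmd2 was not called without control array 1, 2 or 3 or thalidomide array 2, nor Psme2 without any 1 array but thalidomide array 1 (adjusted p up to 0.093 and 0.163). Between 2 and 9 members were called when 1 array was left out, and 0 with the 48 h arrays alone. Of the 47, 35 were among the brightest 5545 genes.

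Of 16 definitive endoderm genes, Cxcr4 and Cldn6 fell and 0 rose (median −0.12, −0.09 after loess). Cldn6, a claudin of early epithelia that the epiblast list also holds, was at 10.20, 10.30 and 10.40 in controls and 10.02, 9.86 and 9.80 after exposure; it fell by 0.41 ± 0.10 (adjusted p = 0.0271) and was at −0.09 at 24 h. It was not called without control array 2 or 3 or thalidomide array 2 or 3 (adjusted p up to 0.1). Other defining markers did not pass the test: Sox17 changed by −0.20 (adjusted p = 0.147), Cer1 by −0.50 (0.263) and Foxa2 by −0.01 (0.966). The mean signal over Sox17, Foxa2, Cxcr4 and Cer1 ran from 8.2 to 8.43 on control arrays and from 7.96 to 8.03 on exposed arrays. This mean holds Cxcr4, whose fall is already counted, so it is not separate from that call. Visceral and extraembryonic endoderm had 0 calls of 20 genes.

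Among 15 genes of the post-implantation epiblast, Otx2 and Cldn6 fell and Tead2 rose. Otx2, a homeobox factor of the anterior epiblast and neuroectoderm, was at 8.38, 8.21 and 8.38 in controls and 7.81, 7.86 and 7.79 after exposure, with no overlap. It fell by 0.50 ± 0.12 (adjusted p = 0.0258) and stood at −0.33 at 24 h (adjusted p = 0.129) and 0.29 at 72 h (adjusted p = 0.472). The call was lost without control array 1 or 3 or any 1 exposed array (adjusted p up to 0.0834). Tead2, a partner of YAP, rose by 0.26 ± 0.06 (adjusted p = 0.0212), and lost its call without control array 2 or thalidomide array 2 or 3 (adjusted p up to 0.0782). Naive and core pluripotency had 0 calls of 25, with a median of 0.02 (0.08 after loess); Pou5f1 differed by 0.18 (adjusted p = 0.254) and Nanog by 0.24 (0.608). Primitive streak and nascent mesoderm genes had 0 calls of 28 (median −0.01, 0.04 after loess), with Mixl1 at −0.25 (adjusted p = 0.525) and Eomes at 0.06 (0.881). Neural progenitor genes had 1 call of 25, Otx2, with a median of −0.05 (−0.02 after loess). Of the neural markers, Sox1 was at −0.77 (adjusted p = 0.0634), Pax6 at 0.16 (0.651) and Neurog2 at 0.09 (0.655).

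The heart lists held 1 of the largest falls at 48 h but few calls. Myl7, the atrial myosin light chain, was at 6.80, 6.43 and 5.99 in controls and 5.64, 5.12 and 5.20 after exposure. The groups did not overlap, but the controls spread over 0.8 log2 units. It fell by 1.09 ± 0.31 (adjusted p = 0.0482), and lost the call without control array 1, 2 or 3 or thalidomide array 2 or 3 (adjusted p up to 0.173) and after loess (adjusted p = 0.0676). Of 24 sarcomere genes Myl7 was the only call, with a list median of −0.01 (0.01 after loess); Tnnt2, cardiac troponin T, was at −0.47 (adjusted p = 0.332). Myh6, the alpha myosin heavy chain, lay above controls at 48 h (0.60 ± 0.21, adjusted p = 0.101) and below them at 72 h (−1.32, adjusted p = 0.0721), and neither value passed the test.
Of 21 cardiac transcription factors, 3 fell: Hey2, a Notch target of ventricular muscle (−0.48 ± 0.12, adjusted p = 0.0245), Irx5 (−0.24 ± 0.07, adjusted p = 0.0479) and Srf (−0.23 ± 0.07, adjusted p = 0.0459). Irx5 and Srf lost the call without any single one of the 6 arrays, and Hey2 without control array 1, 2 or 3 or thalidomide array 2 or 3 (adjusted p up to 0.146, 0.135 and 0.114); after loess none of the 3 passed (adjusted p = 0.179, 0.161 and 0.0558). Cardiac calcium handling had 0 calls of 21. In smooth muscle, Cald1, caldesmon, was at 8.65, 8.66 and 8.68 in controls and 8.37, 8.26 and 8.35 after exposure, a fall of 0.33 ± 0.07 (adjusted p = 0.0115; not called without thalidomide array 2, adjusted p = 0.056). The difference at 24 h was −0.01. Angiogenic signals had 0 calls of 27, and endothelial genes 0 of 27, with a median of 0.05 (0.06 after loess) and 8 below 0. Etv2, an inducer of the endothelial and blood lineages, was at −0.43 ± 0.15 (adjusted p = 0.091), while Lyl1 of the same list was at 0.43 ± 0.15 (0.0973).

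Signalling genes showed scattered falls. Tgfb1, the ligand, was at 7.64, 7.85 and 7.90 in controls and 7.17, 7.18 and 6.94 after exposure, and fell by 0.70 ± 0.15 (adjusted p = 0.0129). It stood at −0.62 at 24 h and was the 1 call among 22 TGF-beta genes; it was not called without control array 3 or thalidomide array 3 (adjusted p up to 0.0574). In the FGF-ERK list, Ier3, an immediate early gene, was at 6.46, 6.32 and 6.76 in controls and 5.92, 5.91 and 5.97 after exposure. It fell by 0.58 ± 0.10 (adjusted p = 0.00456) and by 0.47 at 24 h. Spry2, a feedback inhibitor, fell by 0.24 ± 0.07 (adjusted p = 0.0479), a call lost without any single one of the 6 arrays (adjusted p of 0.0629 to 0.149). The list had 2 of 22 genes lower and a median of −0.15 (−0.09 after loess, with 1 call).
Of 21 genes of the BMP list, which includes ligands and targets, 3 fell: the ligand Bmp2 (−0.49 ± 0.13, adjusted p = 0.0355), the extracellular modulator Bmper (−0.37 ± 0.10, adjusted p = 0.042) and the target Id3 (−0.30 ± 0.08, adjusted p = 0.0459). None of the 3 passed after loess (adjusted p = 0.071, 0.0877 and 0.0905), and each lost its call without control array 1 or 2 or thalidomide array 2 or 3, Bmp2 and Id3 also without control array 3 (adjusted p up to 0.143, 0.175 and 0.163). Binding proteins of insulin-like growth factors gave 3 of 15 calls. Igfbp2 fell by 0.44 ± 0.08 (adjusted p = 0.00451; −0.46 at 24 h). Igfbp5 fell by 0.34 ± 0.09 (adjusted p = 0.0324) after a rise of 0.31 at 24 h (adjusted p = 0.0438), and Igfbp3 fell by 0.36 ± 0.10 (adjusted p = 0.0408); both lost the call at 48 h without any single one of the 6 arrays (adjusted p up to 0.116 and 0.144) and after loess (0.0847 and 0.101). Nodal, retinoic acid and canonical Wnt genes had 0 calls of 12, 19 and 20. Limb patterning genes had 1 call of 32, Bmp2.

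Genes linked to interferon had 5 of 25 members lower and 0 higher, with a list median of 0.02 (−0.03 after loess). Bst2 was at 6.80, 6.76 and 7.17 in controls and 5.92, 5.95 and 6.01 after exposure, a fall of 0.95 ± 0.15 (adjusted p = 0.00239) with −0.91 at 24 h. Usp18, which removes ISG15 from proteins, fell by 0.48 ± 0.09 (adjusted p = 0.00766), and Ifitm3, a membrane protein also used as an early germ cell marker, by 0.38 ± 0.07 (adjusted p = 0.00412). B2m, the light chain of MHC class I, fell by 0.28 ± 0.07 (adjusted p = 0.0191) and Isg20 by 0.36 ± 0.10 (adjusted p = 0.0392); both lost the call without control array 2 or 3 or thalidomide array 2 or 3 (adjusted p up to 0.0794 and 0.167). After loess 3 of the 25 were called, and with the 48 h arrays alone 1.

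Stress genes did not rise. Of 21 genes of the NRF2 antioxidant response, 3 fell and 0 rose (median −0.11, −0.05 after loess with 1 call). Of the 21, 16 were among the brightest 5545 genes. Gstp1, a glutathione transferase, was at 9.32, 9.25 and 9.41 in controls and 8.80, 8.92 and 8.83 after exposure; it fell by 0.47 ± 0.08 (adjusted p = 0.0044) and stood at −0.18 at 24 h (adjusted p = 0.214). Gclm, of glutathione synthesis, fell by 0.29 ± 0.07 (adjusted p = 0.023) and Taldo1, of the pentose phosphate pathway, by 0.30 ± 0.08 (adjusted p = 0.039). Taldo1 lost its call without any single one of the 6 arrays and Gclm without control array 2 or 3 or thalidomide array 2 or 3 (adjusted p up to 0.127 and 0.0876). Of 25 genes of the unfolded protein and integrated stress response, Xbp1 (−0.31 ± 0.08, adjusted p = 0.0254) and Sdf2l1 (−0.34 ± 0.09, adjusted p = 0.0379) fell, and after loess neither did (adjusted p = 0.0618 and 0.0986). Xbp1 was not called without control array 1 or 3 or thalidomide array 2 or 3, nor Sdf2l1 without control array 1, 2 or 3 or thalidomide array 1 or 2 (adjusted p up to 0.109 and 0.154). The 7 aryl hydrocarbon receptor targets had 0 calls, with Cyp1a1 at 0.18 ± 0.12 (adjusted p = 0.405).

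Slc2a3, the glucose transporter GLUT3, was at 11.05, 11.14 and 11.10 in controls and 11.45, 11.43 and 11.51 after exposure, and rose by 0.37 ± 0.06 (adjusted p = 0.00452). It rose by 0.61 at 24 h. Pfkm, a phosphofructokinase of glycolysis, fell by 0.36 ± 0.09 (adjusted p = 0.0218; not called without control array 3 or thalidomide array 2 or 3, adjusted p up to 0.0962). They were the 2 calls among 28 genes of glycolysis, glucose transport and hypoxia, with a median of 0.01 (0.06 after loess). In cholesterol synthesis Lss fell by 0.31 ± 0.07 (adjusted p = 0.019) and Sqle rose by 0.25 ± 0.07 (adjusted p = 0.0494), of 19 genes; Sqle lost its call without any single one of the 6 arrays and Lss without control array 3 or thalidomide array 2 (adjusted p up to 0.165 and 0.0794).

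Collagens and matrix genes gave 3 rises and 1 fall of 60, with a median of 0.12 (0.11 after loess) and 9 members below 0. Col1a1, the fibrillar collagen chain, was at 5.82, 6.05 and 5.88 in controls and 6.32, 6.38 and 6.36 after exposure, a rise of 0.44 ± 0.09 (adjusted p = 0.0107; 0.0505 without control array 1). Col20a1 rose by 0.38 ± 0.09 (adjusted p = 0.0201), a call lost without control array 1 or 3 or thalidomide array 2 or 3 (adjusted p up to 0.0775). Loxl1, which crosslinks elastin, fell by 0.48 ± 0.08 (adjusted p = 0.00457), against 0.13 at 24 h. Thy1, a surface marker of fibroblasts and other cells, rose by 0.47 ± 0.12 (adjusted p = 0.0323; not called without control array 1 or 2 or thalidomide array 2 or 3, up to 0.145), whereas Pdgfrb, which marks mesenchyme, differed by −0.02 (adjusted p = 0.959). The mean over Col1a1, Thy1 and Pdgfrb ran from 6.39 to 6.52 on control arrays and from 6.7 to 6.77 on exposed arrays. Col1a1 and Thy1 were themselves called higher, so this mean is not separate from their calls. The part of fibroblast-like cells in the change of collagens was not tested. Of 36 Hox genes, 1 was called, Hoxb4, a dim gene (0.49 ± 0.13, adjusted p = 0.0395; not called without control array 2 or 3 or thalidomide array 1 or 3, adjusted p up to 0.15, nor after loess, 0.0694). The Hox median was 0.13, and 0.07 after loess.

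Small nucleolar RNAs, which guide the modification of ribosomal RNA, gave 5 rises and 0 falls of 73 (6.85%, against 1.85% of all genes), with a median of 0.12 (0.14 after loess). Of the 73, 55 were among the brightest 5545 genes, of which 1.71% were called higher. Snord104 was at 9.43, 9.34 and 9.30 in controls and 9.96, 10.19 and 10.36 after exposure, a rise of 0.81 ± 0.11 (adjusted p = 0.00139). Snora44 was at 10.20, 10.07 and 10.30 in controls and 10.91, 11.02 and 10.94 after exposure, a rise of 0.76 ± 0.11 (adjusted p = 0.00139). Their 24 h values were 0.91 and 1.07, and 17 members of the list were higher at 24 h (1.42% of all genes were). Such short RNAs lie mostly in introns of host genes.
Cytosolic ribosomal proteins were mixed, with 4 of 64 higher and 2 lower and a median of −0.04 (−0.03 after loess). Rpl38 rose by 0.35 ± 0.06 (adjusted p = 0.00517) and Rpl3 by 0.51 ± 0.10 (adjusted p = 0.00689), with other probe sets of Rpl3 at 0.22 and 0.04 and the call lost when they were averaged. Rps15 rose by 0.67 ± 0.12 (adjusted p = 0.00489) at a signal near 5, where the list's median control signal was 9.4, and was at −0.26 at 24 h (adjusted p = 0.227). Ribosomal protein genes have many pseudogene copies, so these probe sets are uncertain.

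Further markers of cell types that embryoid bodies can hold did not pass the test. Blood markers Gata1, Hbb-bh1 and Klf1 were dim, with a mean of 4.41 to 4.58 on control and 4.61 to 4.64 on exposed arrays, and the trophoblast markers Elf5 and Tpbpa had 4.13 to 4.17 and 3.94 to 4.63. Endothelial markers had a mean of 6.48 to 6.83 in controls and 6.75 to 6.88 after exposure. Of the pluripotency markers, Sox2 differed by 0.01 and Zfp42 by −0.12 (adjusted p = 0.979 and 0.673).

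The 48 h changes were set beside those of 24 h and 72 h, comparisons that share no array with it. At 24 h 1521 genes were called (6.86%), and 501 genes were lower and 66 higher at both times, with 2 in opposite directions. Genes called in the same direction at both times are 42.0% of the 48 h calls and 37.3% of the 24 h calls. Of the 1349 genes called at 48 h, 1220 had the same sign at 24 h. The 939 genes lower at 48 h had a median of −0.37 then, of −0.30 at 24 h and of −0.03 at 72 h; the 410 genes higher at 48 h had medians of 0.39, 0.13 and 0.04. Across genes, which are not independent replicates, the 48 h change correlated with that of 24 h at r = 0.494 (Spearman rho 0.476) and with that of 72 h at 0.14 (0.172). For no gene was the change at 48 h shown to differ from that at 24 h at an adjusted p under 0.05 in limma's interaction contrast, nor in any alternative fit that held both times, while 1701 genes had an unadjusted p under 0.05.

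At 72 h 2 genes were called (0.00902%). The interaction contrast called 21 genes whose change differed between 48 h and 72 h (0.0947%; 3110 at an unadjusted p under 0.05), and 17 of them had the smaller change at 72 h. Sdhc differed by 1.26 ± 0.12 (adjusted p = 0.000166), H2bc12 by 1.35 ± 0.15 (0.000716), Bod1 by 0.92 ± 0.13 (0.0175) and Dexi by −0.85 ± 0.12 (0.0175). Their 72 h values lay between −0.10 and 0.18. Mrps21, Tnfrsf10b and Myh6 were also among the 21. At 72 h the controls carry the re-analysis tag and the exposed arrays lack it, as at 48 h. Leaving out 1 array of 48 h left 2 to 15 such genes, and 13, 2, 7, 9 and 2 without control array 1, 2 or 3 or thalidomide array 1 or 3.

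**Figure D4:**
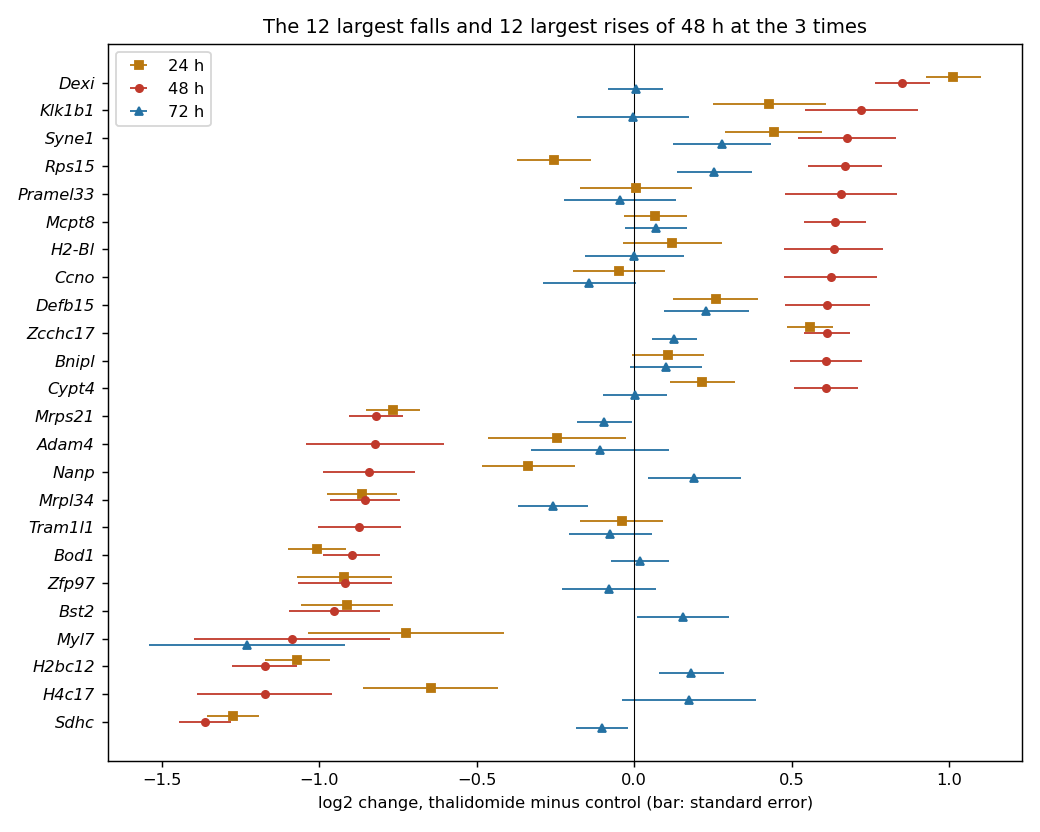
Log2 change, thalidomide minus control (horizontal axis), with its standard error, for the 12 genes that fell most and the 12 that rose most at 48 h among called genes with no overlap between the groups (predicted loci, olfactory and vomeronasal receptor genes and small RNAs left out), at 24 h (squares), 48 h (circles) and 72 h (triangles). Sdhc lies at −1.27, −1.36 and −0.10 and Dexi at 1.01, 0.85 and 0.00 at the 3 times, while Tram1l1 (−0.04) lies near 0 at 24 h.

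Relative to the course of the control cultures, measured as control at 72 h minus control at 24 h and so without any 48 h array, the 48 h change was weakly and negatively related across genes (r = −0.108, rho −0.125). The 2914 genes that rose over the control course had a median 48 h change of −0.06, with 181 lower and 25 higher (6.21% and 0.858%, against 4.23% and 1.85% of all genes). The 3181 genes that fell over it had a median of −0.03, with 248 lower and 77 higher (7.8% and 2.42%). After loess these medians were −0.02 and −0.01. Among the 3246 genes that then rose over the course, 119 were lower and 68 higher (3.67% and 2.09%). Among the 2836 that fell, 146 were lower and 91 higher (5.15% and 3.21%), against 606 lower and 415 higher of all 22180 genes. Without 1 array of 48 h other than thalidomide array 1, between 55 and 84 of the rising genes were lower (1.9% to 2.93%). Between 11 and 18 were higher (0.379% to 0.621%). Over all 22180 genes these fits called 368 to 506 lower and 126 to 214 higher. Without thalidomide array 1, 189 of the rising genes were lower and 16 higher, against 856 and 424 of all genes. Of 69 genes that rose at least 4-fold over the course, 5 were lower (7.25%, against 4.23% of all genes) and 0 higher after exposure, with a median of −0.12. After loess 1 of 70 such genes was lower, and without control array 1, 2 or 3 or thalidomide array 2 or 3 the number was 0, 1, 2, 0 and 1. Of 25 that fell at least 4-fold, 0 were called at 48 h, with a median of 0.00. Among the 11090 genes at or above the median signal, 13.2% of those that rose over the course were lower and 2.36% higher. Of those that fell over it, 16.7% were lower and 4.02% higher, against 1570 lower and 380 higher of the 11090. Among these brighter genes, those that rose were called lower at a smaller share than all 11090, and higher at a smaller share too.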

How the data were processed

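Total RNA of embryoid bodies was measured on 18 arrays in 6 groups of 3, and the 6 arrays of 48 h carry the comparison. The authors deposited log2 signals for each probe set on each array, which per the submitters' processing notes were computed by RMA with Affymetrix Expression Console 1.3, with a genome build not given in the sources used here. RMA equalises the arrays' distributions, so a change is relative to other probe sets and a shift of most transcripts would be invisible. No detection values were used, and the number of arrays limits the precision. Medians of the 48 h arrays ran from 5.40 to 5.46, and arrays of a group correlated across genes at r = 0.994 to 0.995, so none were copies.

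Of 41345 probe sets, 23521 had 1 gene symbol in the platform table, 1814 had several and were not named, and 16010 were not listed. Gene identifiers of 23328 matched RefSeq (GRCm38.p6). The brightest probe set stood for a gene, which left 22180 genes. limma 3.58.1 in R 4.3.3 fitted 6 group means over all 18 arrays, tested two-sided, with Benjamini-Hochberg adjustment over all genes of a contrast; all adjusted p-values are limma's. The threshold was 0.05. The scripts were tested on simulated data.

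Named genes were the 12 largest called falls and rises with no overlap between groups (without predicted loci, olfactory and vomeronasal receptor genes and small RNAs), up to 3 called members of each of 48 gene lists or else its member with the smallest p, the marker and complex II genes, Crbn, Sall4, and the 6 genes with the smallest p for a difference between times. Other members are named because the text counts them and were chosen after their values were seen. The comparison, the genes and the lists were chosen with earlier results of these data known. Promoters are from RefSeq's GRCm38.p6 table. Alternatives were loess between arrays, averaged probe sets, all probe sets, a filter on dim genes, array weights, trended and robust priors, a replicate block, the 48 h arrays alone, and each 48 h array left out.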

Additional observations from a re-analysis of the deposited data

Results flagged for a closer look

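Sdhc, H2bc12, Bod1 and Mrps21 were lower after exposure at 48 h and differed between times: the change at 72 h minus that at 48 h was 1.26 (adjusted p = 0.000166), 1.35 (0.000716), 0.92 (0.0175) and 0.73 (0.0303). Dexi, higher at 48 h, had a difference of −0.85 (0.0175). Tnfrsf10b went from −0.40 at 48 h to 0.38 at 72 h, a difference of 0.78 (0.0301). Myh6 went from 0.60 to −1.32, a difference of −1.92 (0.0301), although neither change passed the test by itself. These p-values are from limma's interaction contrast.

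Outside the named genes, 559 of 17824 probe sets without a single gene symbol were called at 48 h in limma's fit over all probe sets, 219 higher and 340 lower. The same fit called 1494 of all 41345 probe sets (454 higher, 1040 lower), a slightly larger share. The probe sets without a single symbol belong to no result of the report.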

How the results depend on the processing

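Of 103 genes considered by name, 18 of the 86 called ones were called in every alternative that held them. Of these 18, Cypt4, Mcpt8, Rps15 and Tram1l1 were held by 12 of the 13 alternatives, since the filter on dim genes dropped them. The 86 also kept their sign, which most alternatives could not have changed. Sdhb, not called, went from −0.06 to 0.02 after loess. The call counts moved with the arrays used. Calls at 48 h ran from 494 to 1280 when 1 array was left out (126 to 424 higher, 368 to 856 lower, 84 to 194 at 1.5-fold or more), the lowest without thalidomide array 2. The 48 h arrays alone gave 163 calls (37 higher, 126 lower, 75 at 1.5-fold or more). Lower genes numbered 606 after loess, 1570 when dim genes below the median were dropped, and 1428 with trended and robust priors. All probe sets gave 390 calls of 1.5-fold or more. For genes whose change differed between 48 h and 72 h, counts were 89 with array weights, 32 after loess, 365 in the brighter genes, 350 with trended and robust priors, and 2 to 15 when 1 array was left out. With a replicate block the same count was 5, and the count of calls at 48 h was 1195. Exposed and control arrays of the same number correlated in their deviations from the group means at 0.09, 0.01 and −0.02. Arrays of different numbers did so at −0.08 to 0.07. With so few arrays these values cannot settle whether the numbers pair the samples, and the labels do not say. The cause of the shifts in the counts was not tested.

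Without detection values dim genes could not be set against background, and 3 arrays a group limit which small changes can be shown. Of the medians of the 48 lists recomputed under the alternatives, 507 stayed within the SD of the list's medians on the exposed arrays and 117 moved. The 48 h arrays alone, the replicate block and the trended and robust priors leave each change as in the main fit. Medians under these alternatives could not move, so the 507 overstates stability.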

Other observations

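Some further calls at 48 h fell in lists that the report does not describe. Ndn, an imprinted growth suppressor, was at 7.38, 7.71 and 7.46 in controls and 7.19, 7.06 and 7.13 after exposure, a fall of 0.39 ± 0.10 (adjusted p = 0.0365) with −0.43 at 24 h. It was the 1 call among 19 imprinted growth regulators and was not called without control array 2 or 3 or thalidomide array 2 or 3 (adjusted p up to 0.137). Itga2b, the platelet integrin that also marks early blood progenitors, rose by 0.26 ± 0.07 (adjusted p = 0.0451), the 1 call of 16 primitive blood genes; it was not called without control array 1, 2 or 3 or thalidomide array 2 or 3 (adjusted p up to 0.164). Of 18 genes of the two-cell-like state, Usp17le rose by 0.60 ± 0.16 (adjusted p = 0.0377) and Zscan4e fell by 0.63 ± 0.18 (adjusted p = 0.045). Both are dim members of families of close copies. Usp17le lost its call without any single one of the 6 arrays and Zscan4e without any 1 but control array 1 (adjusted p up to 0.11 and 0.159). Notch pathway genes had 1 call of 20, Hey2.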
